A study of Mus musculus with 14 samples.

Results

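Hypoxia response genes are described here across 14 mouse brain libraries. The members were chosen by name: the 3 oxygen-regulated subunits of the hypoxia-inducible factors (Hif1a, Epas1, Hif3a) and 7 of their target genes (Egln3, Vegfa, Adm, Ankrd37, Ndufa4l2, Bnip3, Pdk1), with glucose transporters left out. The choice was made with earlier results of these data known. All 10 were present among the 23375 genes of the deposited table. All 10 also reached 1 FPKM (fragment counts divided by transcript length and by the library's mapped fragments) in at least 2 libraries of each fit, which was the condition for being tested.

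Hypoxia-inducible factors are transcription factors made of an oxygen-regulated alpha subunit and a stable partner, Arnt or a relative of it. When oxygen is plentiful, prolyl hydroxylases of the Egln family mark the alpha subunit and the Vhl protein directs it to destruction; when oxygen is short, the subunit persists, enters the nucleus and binds a short core with the letters ACGTG or GCGTG near its target genes. The targets adjust glycolysis, limit mitochondrial use of pyruvate and recruit blood vessels, and the regulation of Hif1a and Epas1 is largely at the level of the protein, which RNA libraries do not measure.

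The series used mouse haploid embryonic stem cells carrying deletions of imprinted differentially methylated regions (DMRs) to make embryos, in a study of uniparental reproduction. At E19.5, late in gestation, there were KO7 brains, in which Gnas-DMR and Nespas-DMR, Peg3-DMR and Snrpn-DMR, and Grb10-DMR, Igf2r-DMR and Kcnq1-DMR were deleted, KO2 brains, in which IG-DMR and H19-DMR were deleted, and wild-type brains. In adults there were KO2 brains, KO3 brains (the KO2 deletions together with Rasgrf1-DMR) and wild-type brains in 2 labelled sets. Each group had 2 libraries of poly(A) RNA from whole-tissue brain extracts. The labels give neither the strain nor the sex, nor how many cell clones stood behind each genotype, and nothing in them says that the 2 libraries of a group are from different animals. The p-values therefore reflect only the spread between these libraries, which could be technical.

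Between 12701 and 13398 genes reached 1 FPKM in a library, and Pearson's r across genes between the 2 libraries of a group was 0.964 to 0.983. The read depth is unknown. The 4 libraries of adult KO3 and of wild-type set 2 share 9994 genes (42.8%) that are listed at 0 in each of them, so they were tested in a fit of their own and the other 10 libraries in another. Neuron markers summed to 1712 to 2783 FPKM in every library, and none of the 6 was at 0. The sex-linked genes divided the E19.5 libraries: Eif2s3y, encoded on the Y chromosome, stood at 22.6 and 25.0 FPKM in KO7, 0 and 0.0274 in KO2, and 0 in both wild-type libraries. Xist, expressed from the inactive X chromosome, stood at 0.0159 and 0.0402 FPKM in KO7, 1.498 and 84.0 in KO2, and 117 and 106 in wild type. KO2 replicate 1 thus had little Xist and no Y-linked Eif2s3y, and in the KO7 comparisons genotype and sex-linked expression cannot be told apart.

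The promoters of 3 members are shown as examples: Ankrd37 and Egln3, which were higher in KO7 than in KO2, and Hif3a, which was higher than wild type in both. Vegfa and Ndufa4l2 were also higher in KO7 than in KO2 but are not shown. The windows run from 250 bases before to 50 bases after the annotated start, 5′ to 3′ on the gene's strand, and are credited to RefSeq on GRCm38.p6. Capitals mark the core ACGTG or GCGTG on either strand, which reads CACGT or CACGC where it lies on the other strand. All 3 genes are on the minus strand, at chr8:45999801-46000100 for Ankrd37, chr12:54203825-54204124 for Egln3 and chr7:17062378-17062677 for Hif3a.
Ankrd37: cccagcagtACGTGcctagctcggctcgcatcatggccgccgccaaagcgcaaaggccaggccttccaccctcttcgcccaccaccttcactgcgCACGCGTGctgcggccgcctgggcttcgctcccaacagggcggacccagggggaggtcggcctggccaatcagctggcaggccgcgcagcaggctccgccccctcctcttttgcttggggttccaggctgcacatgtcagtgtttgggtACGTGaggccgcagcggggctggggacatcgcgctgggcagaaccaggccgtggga
Egln3: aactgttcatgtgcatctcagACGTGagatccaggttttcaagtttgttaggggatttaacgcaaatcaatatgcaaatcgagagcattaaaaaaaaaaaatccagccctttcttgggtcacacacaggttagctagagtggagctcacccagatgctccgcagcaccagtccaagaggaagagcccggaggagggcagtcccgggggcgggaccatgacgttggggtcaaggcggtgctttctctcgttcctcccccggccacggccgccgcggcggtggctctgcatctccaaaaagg
Hif3a: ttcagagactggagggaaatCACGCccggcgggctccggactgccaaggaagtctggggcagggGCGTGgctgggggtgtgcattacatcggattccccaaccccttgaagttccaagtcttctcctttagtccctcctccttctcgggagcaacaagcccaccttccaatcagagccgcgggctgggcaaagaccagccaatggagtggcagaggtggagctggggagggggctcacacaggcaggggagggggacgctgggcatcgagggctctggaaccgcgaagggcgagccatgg
The Ankrd37 window held 4 cores, of which the pair at positions -155 and -152 from the start overlap in the letters CACGCGTG. The Egln3 window held 1, at -229, and the Hif3a window held 2, at -230 and -186. RefSeq windows were matched for 8 of the 10 members (10 windows, as Vegfa and Pdk1 have 2 each), not for Epas1 and Ndufa4l2. At least 1 core was found for each of the 8 genes and in 8 of the 10 windows, against 43.8% of all 32851 mouse promoter windows of this length. The exceptions were 1 window of Vegfa, at chr17:46032328-46032627, and 1 of Pdk1. The Vegfa cores lay only in its other window, chr17:46025114-46025413, which is further downstream on the gene's minus strand. The members were picked as HIF subunits or targets and base content was not matched, so no enrichment is claimed. The cores are matches of 5 letters, not measured binding.

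At E19.5 the hypoxia response genes were mostly higher in the KO7 brain than in wild type. Of the 10, 6 rose in KO7 (Ndufa4l2, Ankrd37, Hif3a, Vegfa, Adm and Egln3) and none fell, by limma on log2(FPKM + 1) with Benjamini-Hochberg adjustment over all 14184 genes at a threshold of 0.05. In that comparison 12.1% of all tested genes passed and 6.85% passed as higher. The median log2 change of the members was 0.87, against 0.00 (0.0049) over all tested genes. As the members were chosen with earlier results of these data known, their counts and medians are a description. In the KO2 brain at E19.5, 2 of the 10 rose (Hif3a and Epas1) and none fell, where 4.26% of all genes passed and 2.37% passed as higher. The members' median log2 change was 0.39 in KO2, against -0.01 over all genes. Both comparisons share the 2 wild-type libraries, and in bulk tissue a change in the share of a cell type cannot be told apart from a change in RNA per cell.

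The libraries of KO7 and wild type did not overlap for 9 of the 10 members, each higher in KO7, where 30.7% of all tested genes had every KO7 library above every wild-type library. KO2 and wild type did not overlap for 7 members, 6 higher and 1 (Hif1a) lower in KO2, against 27.2% and 30.1% of all genes in those directions. The number of genes that passed over the whole table depended on single libraries. In KO7 against wild type it was 1712, and 120 without wild-type replicate 1, 580 without wild-type replicate 2 and 148 without KO7 replicate 1. In KO2 against wild type it was 604, and 16 and 209 without wild-type replicates 1 and 2, and 61 and 125 without KO2 replicates 1 and 2. Hif3a, Vegfa, Ankrd37 and Ndufa4l2 in KO7 and Hif3a in KO2 passed in all 18 settings tried.

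**Figure D1:**
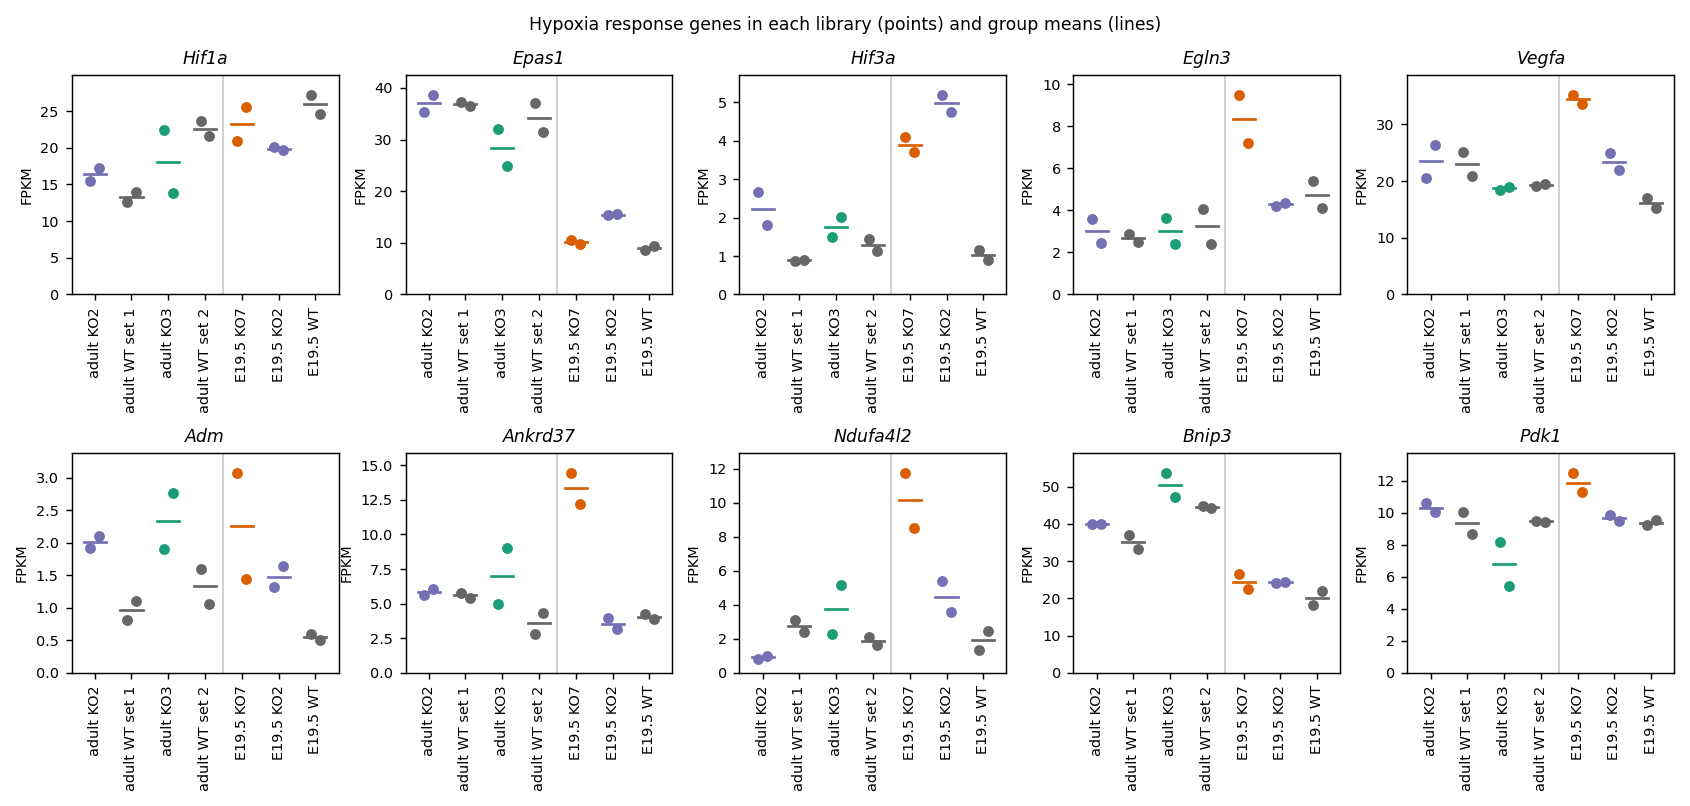
FPKM (linear axis) of each of the 10 genes in each of the 14 libraries, adult groups left of the grey line and E19.5 groups right of it; points are libraries and short lines are means of 2. Ankrd37 in both E19.5 KO7 libraries (12.2 and 14.5 FPKM) lies above every other library, and Epas1 is 24.9 to 38.7 FPKM in adults and 8.71 to 15.6 FPKM at E19.5.

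Of the factor subunits, Hif3a changed most at E19.5. Hif3a encodes another alpha subunit, several splice forms of which restrain Hif1a and Epas1, and it is itself a target of HIF-1 in cultured human cells. Its level was 4.10 and 3.70 FPKM in KO7, 5.20 and 4.76 in KO2, and 1.14 and 0.907 in wild type. All 4 knockout libraries lay above both wild-type libraries, and KO7 lay below KO2. The log2 change against wild type was 1.28 ± 0.149 (SE) in KO7 (limma adjusted p = 0.00366) and 1.56 ± 0.149 in KO2 (adjusted p = 0.00266). KO7 and KO2 differed by a log2 of -0.29 (95% interval -0.62 to 0.05, adjusted p = 0.227), which did not pass.

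Epas1 encodes HIF-2 alpha, the alpha subunit that is prominent in endothelial cells and astrocytes. It stood at 10.5 and 9.72 FPKM in KO7, 15.4 and 15.6 in KO2, and 8.71 and 9.31 in wild type. KO2 was above both other groups, with replicates close together, and KO7 lay just above wild type. Epas1 rose in KO2 by a log2 of 0.72 ± 0.0874 (limma adjusted p = 0.00585). In KO7 the change was 0.15 (95% interval -0.05 to 0.35, adjusted p = 0.267). The KO2 call was lost without wild-type replicate 1, where the log2 change was 0.68.

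Hif1a, the broadly expressed alpha subunit, stood at 21.0 and 25.6 FPKM in KO7, 20.0 and 19.7 in KO2, and 27.3 and 24.6 in wild type. KO7 overlapped wild type, and both KO2 libraries were below it. Neither change passed (log2 -0.15 in KO7, limma adjusted p = 0.387, and -0.37 in KO2, adjusted p = 0.0949). Among the partners and regulators of the alpha subunits, 2 of 7 rose in KO7 (6.85% of all tested genes did) and none in KO2. These were Egln2, a prolyl hydroxylase, at 70.2 ± 6.81 FPKM in KO7 and 48.8 ± 1.47 in wild type (SD, n = 2 each; adjusted p = 0.0116), and Cited2, which competes with HIF-1 alpha for its coactivator, at 34.5 ± 2.63 and 24.3 ± 1.37 FPKM (adjusted p = 0.0216). Arnt, Vhl and Egln1 had log2 changes of -0.07, 0.05 and -0.0019 in KO7 and did not pass. Arnt2, a relative of Arnt, stood at 53.7 and 62.3 FPKM in KO7, 58.8 and 56.8 in KO2, and 75.4 and 71.4 in wild type. It was the lower in both knockouts and passed in neither. Of the 7 genes, 3 lay above wild type in KO7 and 4 below.

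Egln3, the prolyl hydroxylase whose own transcription is raised by HIF, stood at 9.51 and 7.22 FPKM in KO7, 4.23 and 4.36 in KO2, and 5.40 and 4.11 in wild type. Both KO7 libraries were above all others, and KO2 lay within the wild-type range. Egln3 rose in KO7 by a log2 of 0.70 ± 0.180 (limma adjusted p = 0.0379), while the KO2 change was -0.11 (adjusted p = 0.749). The KO7 call was lost when any 1 of 5 libraries was left out: either wild-type library, KO7 replicate 1 or either KO2 library (log2 0.52 to 0.86).

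Of the secreted products, Vegfa, the main angiogenic ligand, stood at 35.3 and 33.6 FPKM in KO7, 25.0 and 21.9 in KO2, and 17.1 and 15.2 in wild type. The 3 groups were stepwise apart, with KO7 highest. Vegfa rose in KO7 by a log2 of 1.05 ± 0.136 (2.13-fold in mean FPKM, limma adjusted p = 0.00470). The KO2 change was 0.51 (95% interval 0.21 to 0.82) and did not pass (adjusted p = 0.0664), although it passed under quantile scaling at a log2 of 0.55. Adm, the vasodilator peptide adrenomedullin, stood at 3.08 and 1.45 FPKM in KO7, 1.31 and 1.65 in KO2, and 0.590 and 0.502 in wild type. The 2 KO7 libraries differed from each other more than those of any other E19.5 group, yet both exceeded wild type. Adm rose in KO7 by a log2 of 1.03 ± 0.218 (adjusted p = 0.0212), and the KO2 change of 0.68 did not pass (adjusted p = 0.103). Without wild-type replicate 1, wild-type replicate 2 or KO7 replicate 1 the KO7 change of Adm was 1.07, 0.99 and 0.66 and did not pass; without either KO7 library the KO2 change, still 0.68, passed.

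Ankrd37, an ankyrin-repeat protein gene that HIF-1 induces in cultured human cells, had the smallest adjusted p of the 10 between the knockouts. It stood at 14.5 and 12.2 FPKM in KO7, 3.97 and 3.14 in KO2, and 4.25 and 3.88 in wild type. KO7 was far above the other groups, which overlapped. The log2 change was 1.497 ± 0.127 in KO7 (3.28-fold in mean FPKM, limma adjusted p = 0.000604) and -0.16 in KO2 (95% interval -0.44 to 0.13, adjusted p = 0.480). Ankrd37 overlaps Ufsp2 in the RefSeq annotation, and the sources used here do not say whether strand was used in the counting. Hif1a, Bnip3 and Adm each overlap a predicted gene. Ufsp2 was 14.4 ± 2.18 FPKM in KO7 and 14.9 ± 0.961 in wild type (log2 change -0.06, adjusted p = 0.786).

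Of the mitochondrial targets, Ndufa4l2, an HIF-induced relative of the respiratory-chain subunit Ndufa4, stood at 11.8 and 8.55 FPKM in KO7, 5.40 and 3.56 in KO2, and 1.37 and 2.49 in wild type. The 3 groups did not overlap. It rose in KO7 by a log2 of 1.94 ± 0.232 (5.27-fold in mean FPKM, limma adjusted p = 0.00375), the largest log2 change among the 10, and its KO2 change of 0.91 did not pass (adjusted p = 0.0608). Ndufa4l2 overlaps Shmt2, which stood at 17.0 ± 0.449 FPKM in KO7 and 13.7 ± 1.16 in wild type (log2 change 0.29, adjusted p = 0.0905). Ndufa4 itself stood at 665 ± 56.5 FPKM in KO7 and 830 ± 88.2 in wild type (log2 change -0.32, adjusted p = 0.190).

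Bnip3, a mitochondrial outer-membrane protein that promotes mitophagy, stood at 26.5 and 22.4 FPKM in KO7, 24.2 and 24.5 in KO2, and 18.1 and 22.0 in wild type. Knockout libraries were above wild type, by a narrow margin. The log2 change was 0.28 against wild type in both and did not pass (limma adjusted p = 0.139 in KO7 and 0.182 in KO2). Pdk1, a kinase that limits mitochondrial use of pyruvate, stood at 12.5 and 11.3 FPKM in KO7, 9.84 and 9.52 in KO2, and 9.23 and 9.54 in wild type. KO7 was above both other groups, which overlapped. Its log2 change was 0.31 in KO7 (adjusted p = 0.0766) and 0.04 in KO2 (adjusted p = 0.846), and neither passed. Among its paralogues, Pdk2 and Pdk4 rose in KO2, to 18.8 ± 0.158 and 2.63 ± 0.604 FPKM, against 10.5 ± 0.960 and 0.846 ± 0.254 in wild type (adjusted p = 0.00586 and 0.0128).

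**Figure D2:**
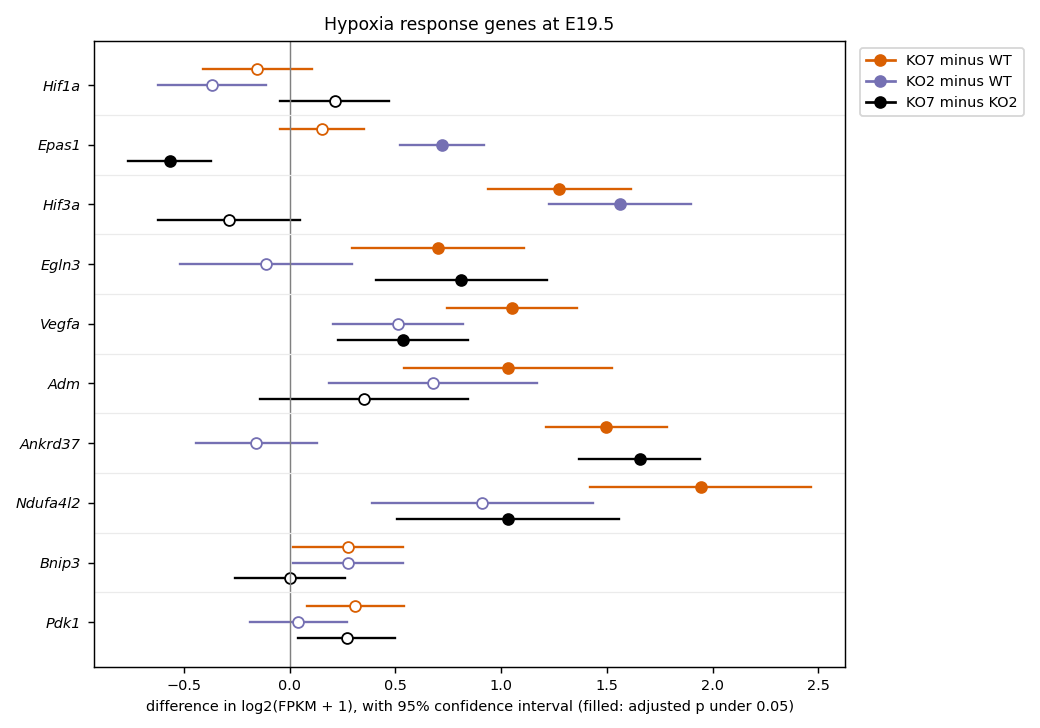
Log2 change in FPKM + 1 with its 95% interval for each of the 10 genes in the 3 E19.5 comparisons; filled points passed the adjusted threshold of 0.05. In KO7 against wild type 6 of 10 passed, from Egln3 at 0.70 to Ndufa4l2 at 1.94, and in KO2 against wild type 2 passed, Epas1 at 0.72 and Hif3a at 1.56.

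Set directly against each other at E19.5, KO7 and KO2 brains differed in 5 of the 10 genes, where 12.9% of all tested genes passed. KO7 was higher for 4, where 7.24% of all genes were: Ankrd37 by a log2 of 1.66 (limma adjusted p = 0.000304), Ndufa4l2 by 1.03 (adjusted p = 0.0238), Egln3 by 0.81 (adjusted p = 0.0225) and Vegfa by 0.54 (adjusted p = 0.0340). KO7 was lower for Epas1, by a log2 of -0.57 (adjusted p = 0.00646), where 5.68% of all genes were lower. Libraries did not overlap for 8 of the 10 members, 6 higher and 2 lower in KO7, against 58.2% of all genes in either direction. The genes that did not pass were Hif3a (-0.29), Hif1a (0.21), Adm (0.35), Pdk1 (0.27) and Bnip3 (0.0010, negative under both other scalings). The count of members that passed was 2 without KO7 replicate 1, 3 without KO2 replicate 1 and 2 without KO2 replicate 2, and the count over all genes fell to 456, 423 and 533, against 1832 with every library. Vegfa and Egln3 did not pass when any of these 3 was left out, and Vegfa also not without KO7 replicate 2 (log2 0.57). Ndufa4l2 did not pass without KO7 replicate 1 (0.82) or KO2 replicate 2 (0.79). Ankrd37 passed in all 18 settings tried. Between the same groups 5 of 6 meningeal markers were higher in KO7, and 6 of 8 astrocyte and 4 of 6 oligodendrocyte markers were lower. Of 7 pericyte markers 3 were higher and 0 lower, and of 8 endothelial markers 2 were higher and 1, Ly6c1, lower. Of 6 neuron markers 1 was higher and 2 were lower.

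Other genes of the pathway moved at E19.5 as follows. Over all tested genes 6.85% passed as higher in KO7, 2.37% in KO2, and 7.24% in KO7 against KO2. Calls of these lists are given as fitted, without the other settings. Of 16 glycolytic HIF targets, 8 rose in KO7 and none fell (median log2 change 0.60), and 2 rose in KO2 (median 0.27). Tpi1, triosephosphate isomerase, stood at 219 ± 56.4 FPKM in KO7 and 103 ± 4.50 in wild type (limma adjusted p = 0.00695), and Ldha, which makes lactate, at 322 ± 96.3 and 157 ± 3.0 FPKM (adjusted p = 0.0161). The others that rose in KO7 were Pgam1, Pfkl, Pkm, Pgk1, Eno1 and Gpi1, and those that rose in KO2 were Gpi1 and Pgam1. Against KO2, KO7 was higher for 7 of the 16 (Pfkfb3, Pkm, Tpi1, Pfkl, Pgk1, Eno1 and Ldha) and lower for Pfkp. The spread of Tpi1 and Ldha was wider in KO7 than in wild type.

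Of 22 other HIF targets tested from 25 listed, 5 rose in KO7 and 1 fell (median log2 change 0.36). In KO2 1 rose and 1 fell. Over all tested genes 6.85% rose in KO7 and 2.37% in KO2. Slc16a3, the lactate exporter, stood at 4.02 ± 1.58 FPKM in KO7 and 0.830 ± 0.118 in wild type (adjusted p = 0.00728), Lox, a collagen cross-linking enzyme, at 6.55 ± 0.754 and 2.47 ± 0.466 FPKM (adjusted p = 0.00419), and Ddit4, an inhibitor of mTORC1, at 39.9 ± 6.0 and 18.7 ± 1.21 FPKM (adjusted p = 0.00714). P4ha1 and Stc2 also rose. Tfrc, the transferrin receptor, fell to 10.8 ± 1.05 FPKM in KO7 and 13.03 ± 2.17 in KO2, against 22.4 ± 1.014 in wild type (adjusted p = 0.00432 and 0.0157). In KO2 the 1 gene of this list that rose was Angptl4, a lipase inhibitor (10.9 ± 0.754 FPKM, against 4.48 ± 1.43 in wild type, adjusted p = 0.0486). Epo, which encodes erythropoietin, a classical HIF target, was listed at 0 in 13 of the 14 libraries.

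Of 8 receptors for VEGF and adrenomedullin, 4 rose in KO7 and none in KO2 (medians 0.43 and -0.04), where 6.85% and 2.37% of all tested genes rose. Kdr, the main signalling receptor for Vegfa, stood at 13.7 ± 1.12 FPKM in KO7 and 7.52 ± 0.158 in wild type (adjusted p = 0.0137), and Flt1, another VEGF receptor that can act as a decoy, at 5.31 ± 0.229 and 2.72 ± 0.150 FPKM (adjusted p = 0.0201). Ramp2, a subunit of the adrenomedullin receptor, stood at 46.8 ± 7.59 FPKM in KO7 and 23.5 ± 5.33 in wild type (adjusted p = 0.0160), and Cxcr7 (Ackr3), a scavenger receptor listed with them, at 17.3 ± 1.80 and 7.04 ± 1.396 FPKM (adjusted p = 0.00268). All 4 were also higher in KO7 than in KO2.

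**Figure D3:**
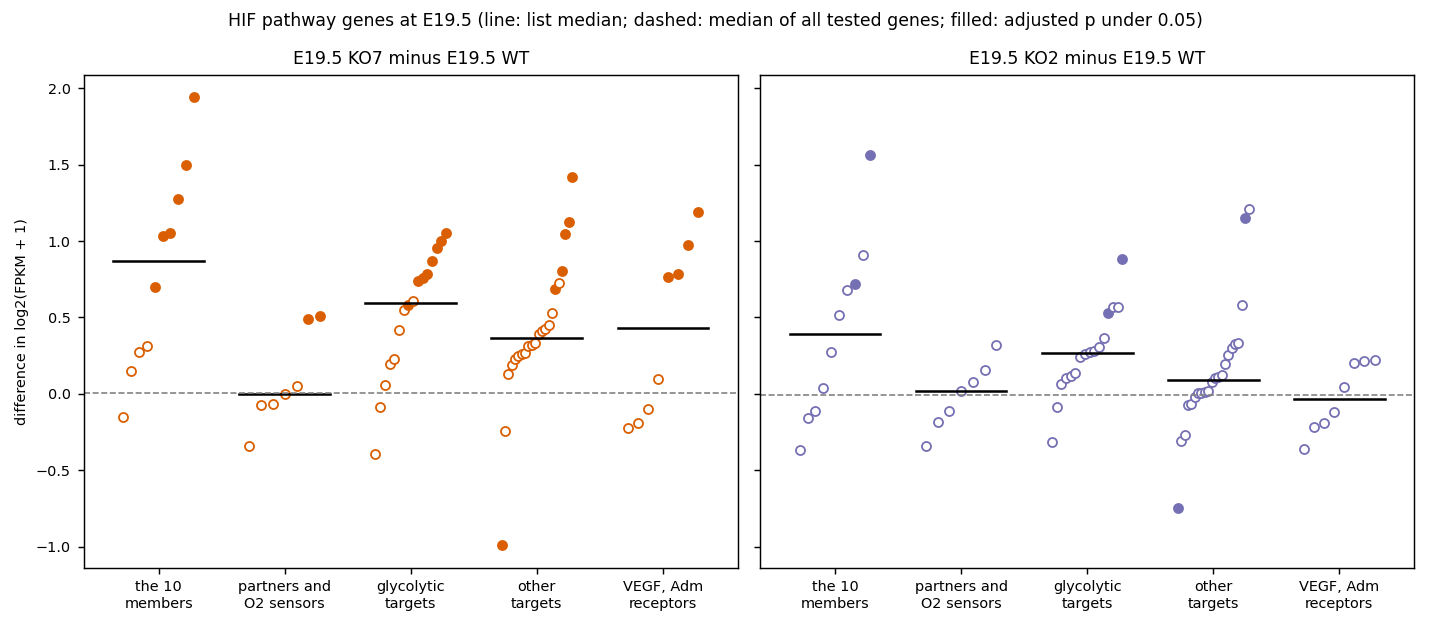
Log2 change in FPKM + 1 of each tested gene of the HIF lists in E19.5 KO7 against wild type and in E19.5 KO2 against wild type; each point is a gene, filled where it passed the adjusted threshold of 0.05. In KO7 8 of 16 glycolytic targets, 5 of 22 other targets and 4 of 8 receptors rose, and in KO2 2, 1 and 0. Over all tested genes 6.85% rose in KO7 and 2.37% in KO2.

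Markers of other cell types moved with these genes at E19.5, where 6.85% of all tested genes rose in KO7 and 2.37% in KO2. Of 8 endothelial markers 5 rose in KO7 and 3 in KO2, and the list summed to 141 and 123 FPKM in KO7, 114 and 108 in KO2, and 73.7 and 80.6 in wild type. Of 7 pericyte markers 4 rose in KO7 and 0 in KO2, with sums of 114 and 96.8 FPKM in KO7, 72.7 and 64.9 in KO2, and 50.3 and 59.4 in wild type. All 6 meningeal markers rose in KO7, with sums of 147 and 124 FPKM in KO7, 50.9 and 51.2 in KO2, and 45.9 and 59.9 in wild type. In KO2 none of the 6 rose and Ogn fell. The red cell markers summed to 2641 and 2478 FPKM in KO7, 405 and 738 in KO2, and 95.01 and 520 in wild type. Of 5 tested, 2 rose in KO7 and 2 in KO2.

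Of 6 microglia markers, 4 rose in KO7 and 3 in KO2, with sums of 63.2 and 54.7 FPKM in KO7, 62.0 and 63.7 in KO2, and 35.8 and 41.0 in wild type. Astrocyte markers summed to 362 and 264 FPKM in KO7, 525 and 488 in KO2, and 233 and 279 in wild type. Of the 8, 1 rose in KO7 and 2 in KO2. In KO7 3 of the 8 lay above wild type and 5 below (median log2 change -0.12). In KO2 all 8 lay above (median 0.72). Oligodendrocyte markers summed to 45.5 and 37.1 FPKM in KO7, 167 and 92.9 in KO2, and 33.9 and 41.8 in wild type, with 0 of 6 rising in KO7 and 3 in KO2. Of the neuron markers, 0 of 6 passed in KO7 and 1, Snap25, rose in KO2; of 5 choroid plexus markers none passed in either. In the vessel, meningeal and red cell lists no marker was at 0 in an E19.5 library. The red cell marker Hba-a2, however, lay at only 0.00348 to 0.00708 FPKM there and was not tested. Hbb-b1 stood at 0.0289 and 232 FPKM in the wild-type replicates. The part of these cell types in the changes of the hypoxia response genes was not tested.

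**Figure D4:**
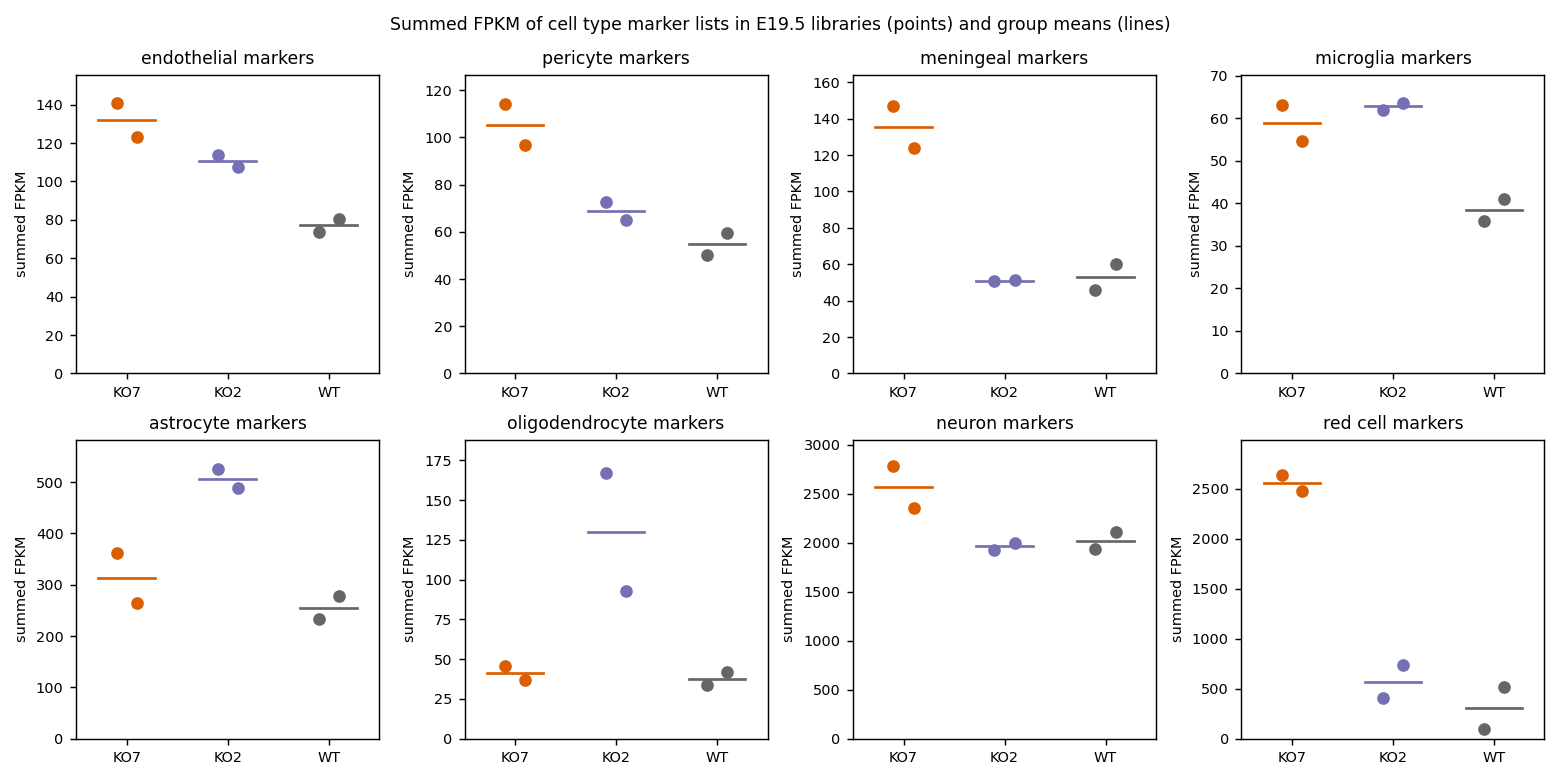
Summed FPKM (linear axis from 0) of marker lists in the E19.5 libraries of KO7, KO2 and wild type, 1 point per library. Endothelial markers sum to 141 and 123 FPKM in KO7 and 73.7 and 80.6 FPKM in wild type, and meningeal markers to 147 and 124 FPKM in KO7 and 45.9 and 59.9 FPKM in wild type.

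The genes most like each of the 9 members that passed in at least 1 comparison (all but Pdk1) over the 10 libraries fitted together were found among all 14184 tested genes by the root mean square difference between centred log2(FPKM + 1) profiles, smaller being more alike. For Ankrd37 they were Myl9, Slc16a3 and Thbd (0.137, 0.189 and 0.213, where the profile of Ankrd37 itself varied by 0.584 around its mean). Myl9 stood at 29.4 and 20.9 FPKM in E19.5 KO7, 9.13 and 7.89 in KO2, and 10.3 and 9.56 in wild type. For Hif3a the nearest was Igfbp7 (0.282, own variation 0.672). Igfbp7 stood at 39.2 and 33.5 FPKM in E19.5 KO7, 44.4 and 43.5 in KO2, and 16.2 and 16.0 in wild type. For Epas1, whose profile is set mainly by stage, they were Eef1a2, Gpr146 and Plekhb2 (0.0645, 0.0667 and 0.0830, own variation 0.836). For Vegfa the nearest was Grap (0.148), for Egln3 H2afz (0.112), for Hif1a Picalm (0.0529), for Bnip3 Daglb (0.0710), for Adm Gatsl3 (0.193) and for Ndufa4l2 Anxa2 (0.373). Libraries share groups, so these distances are a description.

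In adult KO2 brain against wild-type set 1, none of the 10 genes passed (limma, 0.345% of all tested genes did), and 4 had an unadjusted p under 0.05, as did 1791 genes in all. Hif3a stood at 2.66 and 1.80 FPKM in KO2 and 0.864 and 0.907 in wild type. The groups did not overlap (log2 change 0.76, 95% interval 0.43 to 1.101, adjusted p = 0.0822). Ndufa4l2 stood at 0.840 and 0.989 FPKM in KO2 and 3.10 and 2.43 in wild type, with KO2 the lower (log2 change -0.97, adjusted p = 0.157). Adm stood at 1.92 and 2.11 FPKM in KO2 and 0.818 and 1.11 in wild type (log2 change 0.62, adjusted p = 0.309). Hif1a stood at 15.5 and 17.2 FPKM in KO2 and 12.6 and 13.9 in wild type, both KO2 libraries the higher (log2 change 0.29, adjusted p = 0.357).

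The other 6 genes had log2 changes of 0.0033 (Epas1), 0.02 (Vegfa), 0.05 (Ankrd37), 0.12 (Egln3), 0.13 (Pdk1) and 0.18 (Bnip3) in adult KO2, and those of Epas1, Vegfa and Ankrd37 turned negative under quantile scaling. Libraries did not overlap for 4 genes higher and 1 lower in KO2, against 30.1% and 16.3% of all genes. Hif3a passed without adult KO2 replicate 2 (log2 0.96). The count over all genes was 49, and 15 to 31 without any 1 of E19.5 wild-type replicates 1 and 2, E19.5 KO2 replicates 1 and 2, adult KO2 replicate 1 and wild-type set 1 replicates 1 and 2, but 85 without adult KO2 replicate 2. Red cell markers summed to 543 and 531 FPKM in adult KO2 and 24.7 and 356 in wild-type set 1.

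In adult KO3 brain against wild-type set 2 none of the 10 genes passed (limma, 0.509% of all 13153 tested genes did), and 2 had an unadjusted p under 0.05, as did 3002 genes in all. This fit had 4 libraries and 2 residual degrees of freedom. In simulated data of the same design it passed no changed gene, but in the real data it passed 67 genes. The simulation therefore does not measure its power here. With so few libraries, the absence of calls among the 10 does not show that they were alike in KO3 and wild type. Ankrd37 stood at 4.99 and 9.03 FPKM in KO3 and 2.80 and 4.35 in wild type (log2 change 0.78, 95% interval 0.13 to 1.43, adjusted p = 0.160). Ndufa4l2 stood at 2.30 and 5.19 FPKM in KO3 and 2.13 and 1.64 in wild type (log2 change 0.65, adjusted p = 0.218). In both genes KO3 replicate 2 was well above replicate 1, which lay near wild type. Hif1a stood at 22.4 and 13.8 FPKM in KO3 and 23.6 and 21.6 in wild type, replicate 2 being the low one (log2 change -0.34, adjusted p = 0.444). Pdk1 stood at 8.16 and 5.45 FPKM in KO3 and 9.51 and 9.44 in wild type, again lowest in replicate 2 (log2 change -0.45, adjusted p = 0.306).

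The other 6 genes had log2 changes of -0.27 (Epas1), -0.07 (Egln3), -0.04 (Vegfa), 0.17 (Bnip3), 0.27 (Hif3a) and 0.52 (Adm) in KO3. Libraries did not overlap for 5 genes higher and 2 lower in KO3, against 31.3% and 28% of all genes. With KO3 represented by replicate 2 alone, its lone library being assumed to vary like the others, 5540 genes passed in place of 67, and 5 of them were members: Ankrd37, Ndufa4l2 and Adm higher and Pdk1 and Hif1a lower. Without KO3 replicate 2, 486 genes passed, and without wild-type set 2 replicate 2, 129, none of them a member. Red cell markers summed to 965 and 1008 FPKM in adult KO3 and 117 and 60.8 in wild-type set 2.

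In adult wild-type set 1, Epas1 was higher and Hif1a lower than in E19.5 wild type, and Hif3a did not pass. Adult wild-type set 1 against E19.5 wild type gave 6 calls among the 10 genes, 4 higher and 2 lower, in a comparison where 64.4% of all genes passed, 25.2% higher and 39.2% lower. A count of 6 in 10 is near that background. Epas1 stood at 37.4 and 36.4 FPKM in adults and 8.71 and 9.31 at E19.5, the widest separation among the members (log2 change 1.92 ± 0.0874, limma adjusted p = 4.79e-07). Hif1a stood at 12.6 and 13.9 FPKM in adults and 27.3 and 24.6 at E19.5 (log2 change -0.92 ± 0.114, adjusted p = 0.000101). In adult set 2, not part of this fit, Hif1a stood at 23.6 and 21.6 FPKM, and with both sets joined its change was -0.55 and did not pass. In wild type Epas1 thus exceeded Hif1a in both adult set 1 libraries and was below it in both at E19.5, a comparison of FPKM levels, which are per length. In adult set 2 the level of Epas1 was also the higher, at 37.0 and 31.5 FPKM.

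Bnip3 stood at 37.0 and 33.3 FPKM in adult wild-type set 1 and 18.1 and 22.0 at E19.5 (log2 change 0.79, limma adjusted p = 0.000278). Vegfa (log2 change 0.48, adjusted p = 0.0113) and Ankrd37 (0.38, adjusted p = 0.0250) were also higher in adults, and Egln3 was lower (-0.63, adjusted p = 0.0121). Vegfa did not pass without E19.5 replicate 2 or set 1 replicate 1 (log2 0.40 and 0.36), Egln3 without E19.5 replicate 1 or set 1 replicate 2 (-0.47 and -0.56), and Ankrd37 without any 1 of the 4 libraries (0.33 to 0.43). Ankrd37 stood at 2.80 and 4.35 FPKM in adult set 2, which overlaps the 4.25 and 3.88 FPKM at E19.5; it passed in neither fit of all 14 libraries, and its change was 0.11 with both sets joined. The remaining genes did not pass, with log2 changes of -0.10 for Hif3a (positive with both sets joined), 0.38 for Ndufa4l2, 0.34 for Adm and -0.0044 for Pdk1 (positive under both other scalings and with both sets joined). The median log2 change over all genes was -0.15, and -0.01 under median-of-ratios scaling, under which 49.8% of calls were higher, against 39.1% as fitted; the 6 members passed in the same direction there. The members' median log2 change was 0.36 as fitted and 0.46 under that scaling. Astrocyte markers summed to 1455 and 1401 FPKM in adult set 1 and 233 and 279 at E19.5, with 7 of 8 higher, and endothelial markers to 109 and 93.4 FPKM and 73.7 and 80.6; the part of cell makeup in these changes was not tested.

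In KO2 brain, adult against E19.5, 5 of the 10 genes passed, 3 higher and 2 lower, against 58.7% of all genes, 24.5% higher and 34.2% lower. Epas1 stood at 35.3 and 38.7 FPKM in adults and 15.4 and 15.6 at E19.5 (log2 change 1.20, limma adjusted p = 6.26e-06). Hif3a fell to 2.66 and 1.80 FPKM in adult KO2, against 5.20 and 4.76 at E19.5 (-0.90, adjusted p = 0.000764). Ndufa4l2 fell to 0.840 and 0.989 FPKM in adult KO2, against 5.40 and 3.56 at E19.5 (-1.498, adjusted p = 0.000516). In wild type neither Hif3a nor Ndufa4l2 passed with age (log2 -0.10 and 0.38). Bnip3 (0.69, adjusted p = 0.000772) and Ankrd37 (0.59, adjusted p = 0.00325) were higher in adult KO2, the call of Ankrd37 being lost in both fits of all 14 libraries. Hif1a (-0.27, adjusted p = 0.0717), Egln3 (-0.40, adjusted p = 0.0793), Adm (0.28), Pdk1 (0.08) and Vegfa (-0.0038, positive under both other scalings) did not pass.

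The difference between the KO2 effect in adults and the KO2 effect at E19.5 was tested as an interaction, in which 2.13% of all genes passed, 0.804% as lower. Epas1 passed (log2 -0.72 ± 0.124, limma adjusted p = 0.0368): its KO2 effect was 0.0033 in adults and 0.72 at E19.5. Ndufa4l2 passed (-1.88 ± 0.329, adjusted p = 0.0374): its KO2 effect was -0.97 in adults and 0.91 at E19.5. Markers of 5 other cell types lay in the same direction: all 8 astrocyte markers were below 0 in the interaction (median log2 -0.84, Slc1a3 and Aldoc passing), as were 7 of 8 endothelial (median -0.56, Cldn5 and Ly6c1 passing), all 7 pericyte (median -0.43, none passing), 5 of 6 microglia (median -0.54, C1qb passing) and all 6 oligodendrocyte markers (median -1.34), against a median of 0.04 over all genes. Their part in the changes of Epas1 and Ndufa4l2 was not tested. For Hif3a the interaction was -0.80 (95% interval -1.28 to -0.32, adjusted p = 0.0766) and for Hif1a 0.65 (0.29 to 1.02, adjusted p = 0.0652), and neither passed. Nor did Vegfa (-0.49, adjusted p = 0.169), Ankrd37 (0.21), Egln3 (0.23), Pdk1 (0.09), Bnip3 (-0.09) or Adm (-0.06, positive under quantile scaling). Each of the 2 calls held in 7 of 18 settings. The Epas1 call was lost when any 1 of the 8 KO2, wild-type set 1 and E19.5 wild-type libraries was left out, and the Ndufa4l2 call when any was but E19.5 wild-type replicate 2. The count over all genes, 302, was 1 without E19.5 wild-type replicate 1, 4 without set 1 replicate 1, 6 without E19.5 KO2 replicate 1 and 25 to 118 without any 1 of the other 5.

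**Figure D5:**
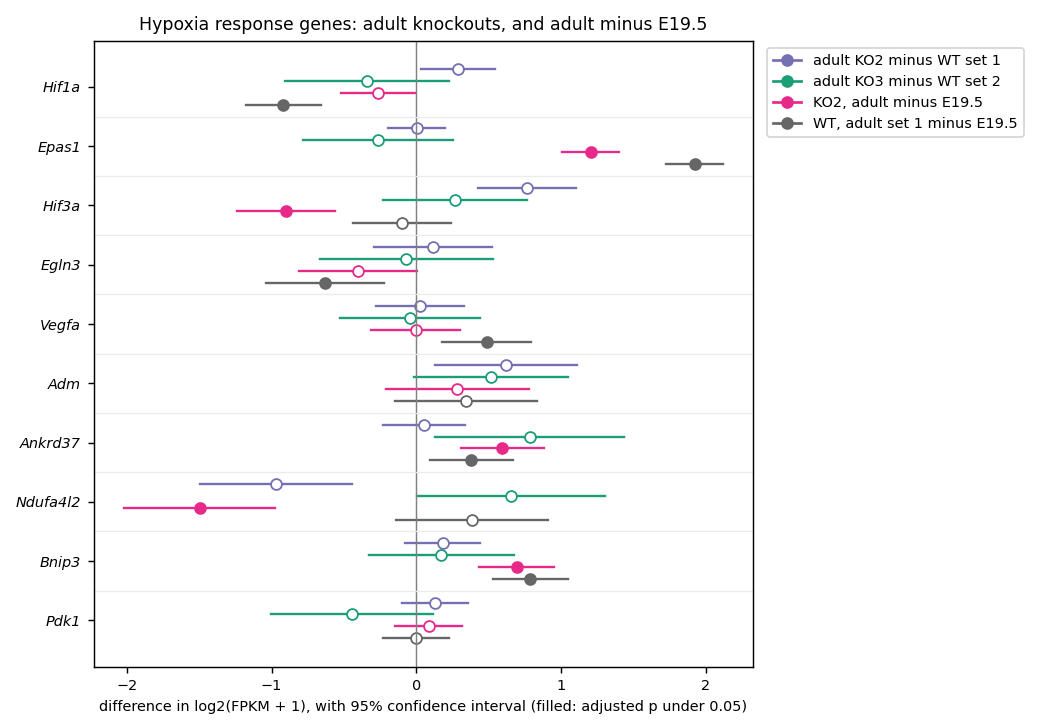
Log2 change in FPKM + 1 with its 95% interval for each of the 10 genes in the adult knockout comparisons and in the comparisons of adult with E19.5; filled points passed the adjusted threshold of 0.05. None passes in adult KO2 or adult KO3, and Epas1 lies at 1.92 in wild type and 1.20 in KO2 for adult against E19.5.

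Within a group the order of levels, in FPKM and so per length, was as follows. In E19.5 KO7 Vegfa led (34.4 ± 1.18), followed by Bnip3 and Hif1a (24.4 ± 2.94 and 23.3 ± 3.28, overlapping), then Ankrd37, Pdk1, Ndufa4l2 and Epas1 at means of 13.3 to 10.1, Egln3 (8.37 ± 1.62), Hif3a (3.90 ± 0.283) and Adm (2.26 ± 1.15; SD, n = 2 each). In E19.5 KO2 Bnip3 and Vegfa led (24.3 ± 0.234 and 23.4 ± 2.18, overlapping) and Adm was last (1.48 ± 0.234). In E19.5 wild type Hif1a led (25.9 ± 1.88), followed by Bnip3 (20.0 ± 2.76) and Vegfa (16.1 ± 1.35), then Pdk1 and Epas1 (9.38 ± 0.220 and 9.01 ± 0.421, overlapping), Egln3 and Ankrd37 (4.76 ± 0.916 and 4.07 ± 0.261, overlapping), Ndufa4l2, Hif3a and Adm. Ankrd37 was 4th among the 10 in E19.5 KO7, 9th in E19.5 KO2 and 7th in E19.5 wild type. In all 4 adult groups Bnip3 and Epas1 were the top 2.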

How the data were processed

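Poly(A) RNA of 14 mouse brain libraries was measured. The authors deposited FPKM values in 1 table. TopHat2 2.1.1, Cufflinks 2.2.1, CASAVA and the mm9 build are listed in the submitters' processing notes, without roles. The sources used here do not state filters, scaling or strand use. The deposited table marks 10 columns as FPKM; the other 4 (adult KO3, wild-type set 2) were taken as FPKM. Of genes at 0 in those 4, 6396 were above 0 elsewhere, and no gene's maximum there lay between 0 and 1.02. Low values did not fall on whole-read steps (at most 14.9% of genes in 1 bin), so depth and counting error are unknown.

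Genes with at least 1 FPKM in 2 libraries were tested as log2(FPKM + 1) with limma 3.58.1 (trend option, 2-sided) in R 4.3.3, Benjamini-Hochberg over all genes, threshold 0.05: 14184 genes in 10 libraries (5 residual degrees of freedom) and 13153 in the other 4. Fold changes on this scale understate changes of low genes. The labels do not pair adult knockouts with wild-type sets; pairs follow the handling of the columns. Alternatives were a pseudocount of 0.1, no filter, quantile and median-of-ratios scaling, fits of all 14 libraries with 7 or 6 groups, a replicate block, and each library left out. Every member was named in every comparison, and genes of the other lists that passed could be named. Arnt, Arnt2, Vhl, Egln1, Ndufa4 and Epo were named beside them. The members and lists were chosen with earlier results of these data known. Fits were tested on simulated data, where the 4-library fit recovered signs and sizes but passed no changed gene. In the real data it passed 67 genes, so that simulation does not measure its power. The most similar genes were sought for members called in at least 1 comparison. Promoters are RefSeq's (GRCm38.p6); no coordinate was read from the mm9 table.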

Additional observations from a re-analysis of the deposited data

Results flagged for a closer look

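For 2 of the genes, Epas1 and Ndufa4l2, the difference between the KO2 effects in adult and E19.5 brain passed as fitted (the interaction, limma adjusted p = 0.0368 and 0.0374). Each call held in only 7 of 18 settings. Both were lost with the replicate block and in both fits of all 14 libraries. Epas1 differed by a log2 of -0.72: the KO2 change was 0.0033 in adults and 0.72 at E19.5. Ndufa4l2 differed by -1.88: the KO2 change was -0.97 in adults and 0.91 at E19.5, and neither of those passed on its own. Groups of 2 libraries are too small for a test of single outlying libraries.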

How the results depend on the processing

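Over 80 member results, 1370 refits gave 1248 with direction and side of the threshold kept, 66 that lost a call, 18 that gained one and 38 with another sign, in 17 results, none of them called (lowest adjusted p in any such refit 0.247). Of 26 calls 12 held in every setting. The numbers at E19.5 did not pair the samples (correlations of deviations -0.0868 to -0.288, adult pairs 0.233 and 0.127), and crossing the E19.5 KO2 numbers was added after seeing the data. With the replicate block 29 genes passed in adult KO2, 968 in adult KO3 and 101 in the interaction (0 members); both interaction calls were lost, Egln3 gained one in KO2 age (-0.40), and no other member call changed. With those numbers crossed, 616 genes passed for E19.5 KO2, against 604 as fitted.

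Genes passing, as fitted and then with all 14 libraries in 7 and in 6 groups, were 1712, 637 and 145 for E19.5 KO7 against wild type (6, 5 and 4 members, and 5 with no filter; Egln3 was lost in all 3 and Adm with 6 groups); 604, 183 and 38 for E19.5 KO2 (2, 2 and 1 members, Epas1 lost); 1832, 806 and 241 for KO7 against KO2 (5, 3 and 1 members, and 3 with no filter); 49, 22 and 7 for adult KO2; 67, 3164 and 2114 for adult KO3 (0, 1 and 1 members: Ankrd37, then Pdk1); and 302, 9 and 3 for the interaction (2, 0 and 0 members). Members passing were 6, 5 and 4 for wild-type age (Ankrd37, then also Hif1a lost) and 5, 4 and 4 for KO2 age (Ankrd37 lost). Adult KO3 gave 30 with a pseudocount of 0.1, 23 with no filter and 2 under quantile and under median-of-ratios scaling (1 of 2 higher, against 85.1%). The interaction gave 126 with no filter (1 member) and 179 under median-of-ratios scaling; its higher share went to 42.2% and 44.1% under the 2 scalings, against 62.3%, and that of adult KO2 to 62.2% under median-of-ratios, against 75.5%.

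Leaving out 1 library gave 120 to 2096 genes (4 to 6 members) for E19.5 KO7, 16 to 723 (1 to 3) for E19.5 KO2, 423 to 1716 (2 to 5) for KO7 against KO2, 15 to 85 (0 to 1) for adult KO2, 75 to 5540 (0 to 5) for adult KO3, 7709 to 9237 (4 to 6) for wild-type age, 6663 to 8417 (5 to 6) for KO2 age and 1 to 325 (0 to 2) for the interaction.

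Signs turned, all in uncalled results, under quantile scaling for Bnip3 in KO7 against KO2 (-0.036), Epas1, Vegfa and Ankrd37 in adult KO2 (-0.035, -0.023 and -0.0078), Egln3 and Bnip3 in adult KO3 (0.040 and -0.065), Pdk1 in wild-type age (0.12), Vegfa in KO2 age (0.061) and Adm in the interaction (0.053); under median-of-ratios for Bnip3 in KO7 against KO2 (-0.0074), Epas1 and Vegfa in adult KO2 (-0.048 and -0.026), Pdk1 in wild-type age (0.15) and Vegfa in KO2 age (0.11); and with 6 groups for Hif1a in adult KO2 and KO3 (-0.079 and 0.024), Egln3 in adult KO3 (0.019), and Hif3a and Pdk1 in wild-type age (0.037 and 0.0041). Leaving out 1 library turned the sign of Egln3 in E19.5 KO2 (-0.27 to 0.052), Bnip3 in KO7 against KO2 (-0.12 to 0.12), Adm in KO7 against KO2 (-0.016 to 0.72), Epas1 in adult KO2 (-0.062 to 0.068), Vegfa in adult KO2 (-0.15 to 0.20), Egln3 in adult KO2 (-0.089 to 0.32), Egln3 in adult KO3 (-0.35 to 0.22), Pdk1 in wild-type age (-0.10 to 0.093), Vegfa in KO2 age (-0.18 to 0.17), Bnip3 in the interaction (-0.23 to 0.041), Pdk1 in the interaction (-0.0096 to 0.19) and Adm in the interaction (-0.17 to 0.049).
The causes were not tested. The depth is unknown, so no counting error can be given for the low genes Adm, Hif3a and Ndufa4l2.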
